A study of Mus musculus with 240 samples.

Results

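Zfp600 to Zfp999 are mouse zinc finger genes that were numbered rather than named for a function. They were chosen here by symbol, as every gene of the deposited log2 expression table with a symbol between Zfp600 and Zfp999. That gave 136 of the 14785 genes in the log2 table. The range of symbols was set with earlier results of these data known. The deposited count table lists 178 genes with such symbols among its 55414, so 42 were not carried into the log2 table and are described only by their counts. The 185 measured genes from Zfp1 to Zfp599 serve as the nearest comparison.

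The study compared the 8 inbred founder strains of the Collaborative Cross in 3 brain regions linked to ethanol preference. The classical laboratory strains are C57BL/6J (B6), A/J (AJ), 129S1/SvImJ (S129), NOD/LtJ (NOD) and NZO/HILtJ (NZO), and the wild-derived strains are WSB/EiJ (WSB), PWK/PhJ (PWK) and CAST/EiJ (CAST). Each strain is represented by 3 females and 3 males, all naïve to ethanol and bought from a vendor. They were killed at 8 weeks of age by the deposited description, whereas the study's methods give an older adult age. From frozen brains of the 48 mice, punches were taken of prelimbic cortex (PrL), of the amygdala's central nucleus (CeA) and of the core of the nucleus accumbens (NAcc). Polyadenylated RNA was sequenced, and of 144 libraries the authors set aside 1 from the NAcc of B6. Group sizes are therefore 6 mice per strain and region, and 5 for B6 in the NAcc. No strain carries an engineered allele, and an inbred strain is a single genotype, so mice of 1 strain do not sample variation within a strain's population of origin.

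Most of these proteins are C2H2 zinc fingers, in which each finger folds around a zinc ion and reads a few bases of DNA. A large share also carries a KRAB box at the N terminus, which recruits Trim28 (KAP1) and with it the histone methyltransferase Setdb1, so that the bound site, often an endogenous retrovirus, is packed into silent chromatin. KRAB zinc finger genes lie in clusters of close copies that were gained and lost rapidly in rodent evolution, and copies differ between mouse strains.

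Among the 133 members with a translated coding transcript in GENCODE M21 (GRCm38), 75 held a KRAB A-box pattern, defined as aspartate-valine, an aliphatic residue, phenylalanine with serine or threonine after it, and glutamate-tryptophan at fixed spacing, and the median member had 11 C2H2 fingers. The pattern is strict, so a member without a match may still carry a diverged KRAB box. The 33-base coding stretches behind that pattern are shown for 10 of the members described below, because they show how alike some neighbouring genes are. Capitals mark the codons of the 5 fixed residues, and each stretch is written 5′ to 3′ on the coding strand.
Zfp970 (chromosome 2): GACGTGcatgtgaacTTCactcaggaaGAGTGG
Zfp931 (chromosome 2): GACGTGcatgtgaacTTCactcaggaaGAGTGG
Zfp937 (chromosome 2): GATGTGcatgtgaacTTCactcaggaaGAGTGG
Zfp971 (chromosome 2): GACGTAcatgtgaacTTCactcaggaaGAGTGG
Zfp951 (chromosome 5): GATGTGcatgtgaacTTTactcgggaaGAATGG
Zfp984 (chromosome 4): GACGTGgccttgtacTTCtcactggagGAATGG
Zfp992 (chromosome 4): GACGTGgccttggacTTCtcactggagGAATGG
Zfp738 (chromosome 13): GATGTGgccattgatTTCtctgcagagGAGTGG
Zfp963 (chromosome 8): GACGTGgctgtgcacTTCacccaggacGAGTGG
Zfp941 (chromosome 7): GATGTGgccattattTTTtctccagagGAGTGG

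Zfp970 and Zfp931 shared this stretch base for base, and Zfp937 and Zfp971 each differed from Zfp970 at 1 base. Zfp984 and Zfp992 also differed at 1 base, whereas Zfp933, which lies beside Zfp984, differed from it at 10 of the 33 bases. Zfp963 shared its stretch with 2 other members of chromosome 8, Zfp866 and Zfp964. Counts of such close copies are uncertain wherever a read could align to more than 1 of them.

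Libraries held between 14942820 and 33951616 counts, with a median of 24456928. Marker genes set the regions apart: the summed level of 7 striatal markers, as counts scaled to library size by the trimmed mean of M values (CPM), had medians of 1120 in the CeA, 2880 in NAcc and 117 in PrL. That of 4 cortical glutamatergic markers had medians of 152.6, 14.46 and 598.5 CPM. A total of 12 libraries lay beyond 1.5 interquartile ranges of their region's quartiles on at least 1 of these sums, and PWK supplied 5 of them. The NAcc library of PWK mouse 48 had 270.9 CPM of cortical markers and its CeA library 14.64 CPM, each nearer to the other region's median than to its own. Striatal markers were at 579.7 and 678.8 CPM in the NAcc libraries of PWK mice 24 and 40, and at 1267 CPM in the PrL library of PWK mouse 40. Counts of calls are therefore also given without these 12 libraries, an alternative added after the data were seen.

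Zinc finger transcripts were scarce. The 136 members together made up 0.2802% of the counts in the median CeA library, 0.2965% in the median NAcc library and 0.2622% in the median PrL library, or 3207, 3309 and 3120 summed CPM. The median member had a mean of 12.6 CPM over all libraries, against 16.5 CPM for Zfp1 to Zfp599 and 26.1 CPM for all genes. Means ran from 1.59 to 227.0 CPM, with 18 members under 5 CPM and 13 over 50 CPM.

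The most abundant member was Zfp706, a small protein with few fingers, at 234.0 ± 22.4 CPM (SD, n = 48) in the CeA, 243.0 ± 29.9 CPM (n = 47) in NAcc and 205.0 ± 18.5 CPM (n = 48) in PrL. It also led per length, at 45.6 CPM per kilobase of exon. Zfp871 followed at a mean of 136.0 CPM and Zfp638, whose human counterpart binds and silences unintegrated retroviral DNA, at 130.0 CPM. At the other end stood Zfp935 at 1.59 CPM, Zfp984 at a regional mean of 1.51 to 1.67 CPM and Zfp960 at 1.97 CPM.

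Strain differences were tested in each region with a limma-voom model of strain, sex and sequencing tray, and an F-test over the 8 strains asked whether any differed. In the CeA 115 of 136 members differed (84.6%, against 80.7% of all genes), in the NAcc 113 (83.1% against 75.9%) and in the PrL 117 (86.0% against 83.8%). A total of 98 members differed in every region (72.1%, against 60.5% of all genes), and 8 in none (5.88% against 4.24%). In bulk tissue, fewer cells of a type and less RNA per cell cannot be told apart, here or in the region comparisons below. Without the 12 libraries the F-test called 108, 105 and 120 members.

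The typical size of a strain difference was ordinary. The median range of the strain means, from the lowest to the highest strain, was 0.54 log2 units in the CeA, 0.54 in NAcc and 0.50 in PrL for the members, against 0.55, 0.56 and 0.48 for all genes and 0.45, 0.45 and 0.42 for Zfp1 to Zfp599. A range above 2 log2 units was seen for 11, 12 and 10 members, which is 8.09%, 8.82% and 7.35%, against 8.89%, 8.69% and 8.06% of all genes. The 10 members with such a range in every region were Zfp970, Zfp984, Zfp738, Zfp992, Zfp937, Zfp971, Zfp963, Zfp783, Zfp951 and Zfp605.

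The steadiest members were Zfp639, Zfp651 and Zfp865. Zfp639 had strain means between 25.4 and 26.6 CPM, with F-test adjusted p values of 0.76, 0.97 and 0.071 in the CeA, NAcc and PrL (limma). Zfp865 lay between 29.7 and 32.6 CPM and Zfp651 between 87.2 and 95.3 CPM. These 3 are among the 8 members called in no region, the others being Zfp771, Zfp710, Zfp712, Zfp688 and Zfp830.

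Some members were close to absent in a single strain. A gene was counted as silent in a strain when none of its libraries held more than 3 counts of it. That was so for 3 of 136 members (2.21%), against 0.487% of all genes and none of the 185 genes from Zfp1 to Zfp599. With both sequencing runs summed, Zfp605 alone met the limit, and with a limit of 0 counts the number was 0. The reads of all strains were aligned to the reference genome, which derives from C57BL/6J, so an allele that is missing or too diverged to align and an allele that is not transcribed cannot be told apart.

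Zfp605 on chromosome 5 was silent in PWK. Its 18 PWK libraries held 6 counts in total, 13 of them none at all and the highest 2, whereas each library of the other strains held at least 203 counts. In CPM the PWK libraries ran from 0.0 through a median of 0.0 to 0.129. The mean was 16.4 ± 1.57 CPM in B6 (SD, n = 17), 18.9 ± 1.88 in AJ, 18.5 ± 1.31 in S129, 18.8 ± 2.1 in NOD, 18.7 ± 2.07 in NZO, 22.6 ± 2.65 in WSB and 21.2 ± 1.84 in CAST (n = 18 each). Here and below, an n of 17 or 18 counts libraries of 3 regions from 6 mice, so the SD includes region differences. No library of PWK overlapped any library of another strain. With PWK set at a floor of 3 counts per library, expression was at least 114.0-fold higher in B6 and at least 157.0-fold higher in WSB. The largest adjusted p over the 7 PWK contrasts was 2.9e-21 in the CeA, 7.9e-19 in NAcc and 1.1e-17 in PrL (limma). None of the other strains differed from all others in any region. The genes on either side in the RefSeq order, Gtpbp6 and Chfr, were at 27.2 and 34.1 CPM in PWK and 27.5 and 31.7 CPM in the other strains.

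Zfp937 on chromosome 2 was silent in WSB and highest in CAST. The 18 WSB libraries held 10 counts in total, with 10 libraries at 0 and none above 3, and ranged from 0.0 to 0.156 CPM with a median of 0.0. In CAST they ranged from 6.29 through a median of 8.72 to 13.0 CPM, a mean of 9.15 ± 1.9 (SD, n = 18). The remaining strains had means from 4.77 ± 1.4 CPM in B6 (n = 17) to 6.55 ± 1.18 in NOD (n = 18). WSB did not overlap the other strains in any region, while CAST overlapped them in every region. Expression was at least 34.1-fold higher in B6 and at least 65.4-fold higher in CAST than in WSB. CAST exceeded every other strain in the CeA, NAcc and PrL with largest adjusted p values of 0.0080, 0.0016 and 0.013 over the 7 contrasts (limma), although edgeR and the fit without a filter on low counts did not call CAST in all 3 regions.

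Zfp984 on chromosome 4 was silent in CAST. The 18 CAST libraries held 17 counts in total, 8 at 0 and none above 3, or 0.0 to 0.161 CPM with a median of 0.0455. The other strains were spread out: S129 had 0.635 ± 0.302 CPM (SD, n = 18), NZO 0.985 ± 0.513, PWK 1.2 ± 0.454, WSB 1.61 ± 0.402, B6 2.36 ± 1.03 (n = 17), NOD 2.48 ± 0.792 and AJ 3.5 ± 1.04. CAST stood apart in the CeA and PrL and overlapped the lowest S129 library in the NAcc. Expression was at least 4.37-fold higher in S129 and at least 24.1-fold higher in AJ, and the largest adjusted p over the 7 contrasts was 4.0e-07, 1.4e-06 and 1.1e-08 in the CeA, NAcc and PrL (limma). The neighbouring Zfp933 was at 12.4 CPM in CAST and 12.7 CPM in the other strains.

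A further 4 members were picked out after their values were seen, from those with a range above 2 log2 units in every region. They were low in some strains without meeting the limit for silence. Zfp738 on chromosome 13 held 115 counts over 18 WSB libraries, from 0.0422 through 0.303 to 0.665 CPM, against strain means of 17.1 ± 3.62 CPM in PWK to 32.9 ± 4.88 in B6. Its neighbours Zfp729a and Zfp65 were at 18.9 and 15.2 CPM in WSB, and at 20.0 and 14.2 CPM elsewhere. Zfp971 had 0.0837, 0.231 and 0.921 CPM as the lowest, median and highest of 18 PWK libraries, against means of 5.9 ± 1.22 in CAST to 9.19 ± 1.57 in B6. For both genes the libraries of the low strain lay below all others in each region.

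Zfp783, annotated as a transcribed pseudogene in GENCODE M21, was low in a pair of wild-derived strains. PWK had 0.507 ± 0.289 CPM and CAST 0.473 ± 0.312 (SD, n = 18 each), while the other strains had means between 8.66 ± 1.32 in AJ and 13.4 ± 3.64 in WSB. Because 2 strains share the low level, neither counts as different from all 7 others. Zfp992 was low in B6, at 0.361 ± 0.284 CPM (n = 17), and in AJ, at 0.724 ± 0.37 (n = 18), against 2.08 ± 0.314 in NZO to 3.6 ± 0.921 in NOD. Its highest library had 1.0 CPM in B6 and 1.55 CPM in AJ. The lowest library had 1.18 CPM in CAST, 1.34 in NZO and 1.46 in S129, so AJ overlapped these strains.

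**Figure D1:**
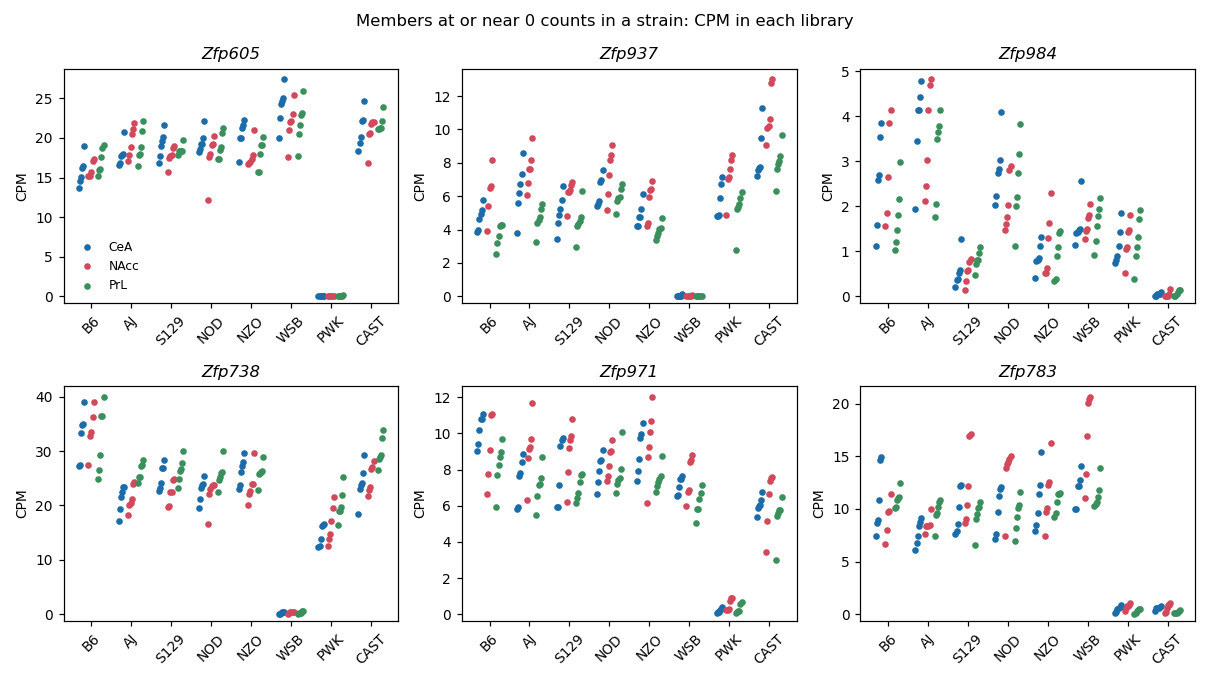
CPM per library of 6 members, with the strains along the horizontal axis and points coloured by region. Zfp605 in PWK, Zfp937 in WSB and Zfp984 in CAST lie at or near 0, as do Zfp738 in WSB and Zfp971 in PWK, and Zfp783 is near 0 in PWK and CAST together.

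A strain was taken to differ uniquely for a gene when it differed from each of the other 7 strains in the same direction, and only genes that did so in all 3 regions, 21 contrasts each, are counted here. Up-expressed members numbered 8 (5.88%, against 4.15% of all genes) and down-expressed members 15 (11.0% against 5.01%). They came to 22 distinct members, since Zfp937 counts for CAST and for WSB. Zfp1 to Zfp599 gave 4 up-expressed and 8 down-expressed genes of 185. Without the 12 libraries the members numbered 8 and 11, and without the tray term 7 and 8. Because all reads were aligned to a reference derived from C57BL/6J, lower expression and loss of reads from a diverged allele cannot be told apart. This holds for the down-expressed members named below except Zfp612, which was down-expressed in B6, the strain the reference derives from.

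PWK had the most down-expressed members, with 7 (5.15% against 1.84% of all genes): Zfp605, Zfp971, Zfp974, Zfp994, Zfp945, Zfp931 and Zfp770. Zfp974 was at 3.73 CPM in PWK and 7.28 to 8.73 CPM elsewhere, without overlap between PWK and other libraries in any region. Zfp931, which lies beside Zfp971, was at 5.28 CPM in PWK and 8.61 to 9.44 CPM elsewhere. Its PWK level fell by 0.82 ± 0.080 (SE) in the CeA, 0.55 ± 0.095 in NAcc and 1.01 ± 0.11 in PrL on the log2 scale. Zfp945, Zfp994 and Zfp770 overlapped other strains in each region, and were not called without the 12 libraries. Without the tray term these 3 and Zfp931 were not called. Zfp770 was also lost with RLE (median-of-ratios) size factors, without the filter on low counts, with summed runs, by edgeR and by DESeq2. No member was uniquely up-expressed in PWK in all 3 regions by limma, edgeR or DESeq2, nor at an unadjusted p under 0.05, where the count was 0. Of all genes 1.41% were so called.

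CAST had 5 up-expressed members (3.68% against 1.61% of all genes), Zfp951, Zfp970, Zfp791, Zfp759 and Zfp937, and 3 down-expressed (2.21% against 1.73%), Zfp984, Zfp667 and Zfp626. Zfp626 was lost without the filter on low counts, without the tray term, with summed runs, with all 144 libraries, and without the NAcc library of B6 mouse 33 or 41. Zfp667 was lost with all 144 libraries. Zfp951 ranged in CAST from 5.51 through 8.35 to 10.7 CPM, with a mean of 8.49 ± 1.57 (SD, n = 18). The other strains had means from 1.19 ± 0.446 CPM in S129 to 3.88 ± 0.903 in WSB, and no library of theirs reached the CAST libraries of the same region. The difference from the mean of the other strains was 1.66 ± 0.11 (SE) log2 units in the CeA, 1.81 ± 0.12 in NAcc and 2.04 ± 0.11 in PrL, with largest adjusted p values of 3.9e-05, 5.0e-06 and 2.5e-10 over 7 contrasts (limma). Zfp970 had 24.7 ± 10.5 CPM in CAST and was lowest in WSB, at 5.2 ± 2.21. Zfp791 had 12.0 CPM in CAST against 5.7 to 8.04 CPM, again without overlap.

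WSB had 3 up-expressed members (2.21% against 0.379% of all genes), Zfp963, Zfp956 and Zfp788, and 3 down-expressed (2.21% against 0.568%), Zfp937, Zfp738 and Zfp943. Without the tray term Zfp788 and Zfp943 were not called. Zfp963 ranged in WSB from 5.28 through 6.62 to 8.35 CPM, with a mean of 6.77 ± 0.767 (SD, n = 18). S129 followed at 3.89 ± 0.525 CPM and the remaining strains lay between 1.42 ± 0.318 in NZO and 1.97 ± 0.429 in AJ. WSB did not overlap them, and its difference from the mean of the others was 1.66 ± 0.095 (SE), 1.91 ± 0.084 and 1.68 ± 0.10 log2 units in the CeA, NAcc and PrL, with largest adjusted p values of 6.8e-06, 4.5e-08 and 2.1e-05 (limma). Of the members with the same KRAB coding stretch, Zfp866 was not highest in WSB, at 25.6 CPM there and 22.0 to 28.1 CPM elsewhere. Zfp964 was highest in WSB by a small margin, at 6.1 against 4.38 to 5.94 CPM.

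Among the classical strains only B6 and S129 had such a member. In B6 it was Zfp612 (0.735% against 0.291% of all genes), at 46.2, 54.9 and 67.5 CPM as the lowest, median and highest of 17 libraries and a mean of 56.9 ± 7.26 (SD), against 72.2 ± 13.0 in CAST to 128.0 ± 22.5 in PWK. The B6 level fell by 0.52 ± 0.057 (SE), 0.81 ± 0.10 and 0.65 ± 0.049 log2 units in the CeA, NAcc and PrL against the mean of the others. The call was lost without the 12 libraries (largest adjusted p = 0.23), with median-of-ratios size factors (0.054) and without the filter on low counts (0.19). In S129 it was Zfp869 (0.735% against 0.108%), at 28.5 ± 3.07 CPM (n = 18) against 32.6 ± 3.45 in NOD to 36.0 ± 3.47 in B6, with overlap in every region. It was lost without the tray term (0.065), with both sequencing runs summed (0.054) and with p values adjusted within each contrast (0.078). AJ, NOD and NZO had none by limma, edgeR or DESeq2, and 0 at an unadjusted p under 0.05, while 0.825% of all genes were called in 1 of these strains.

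**Figure D2:**
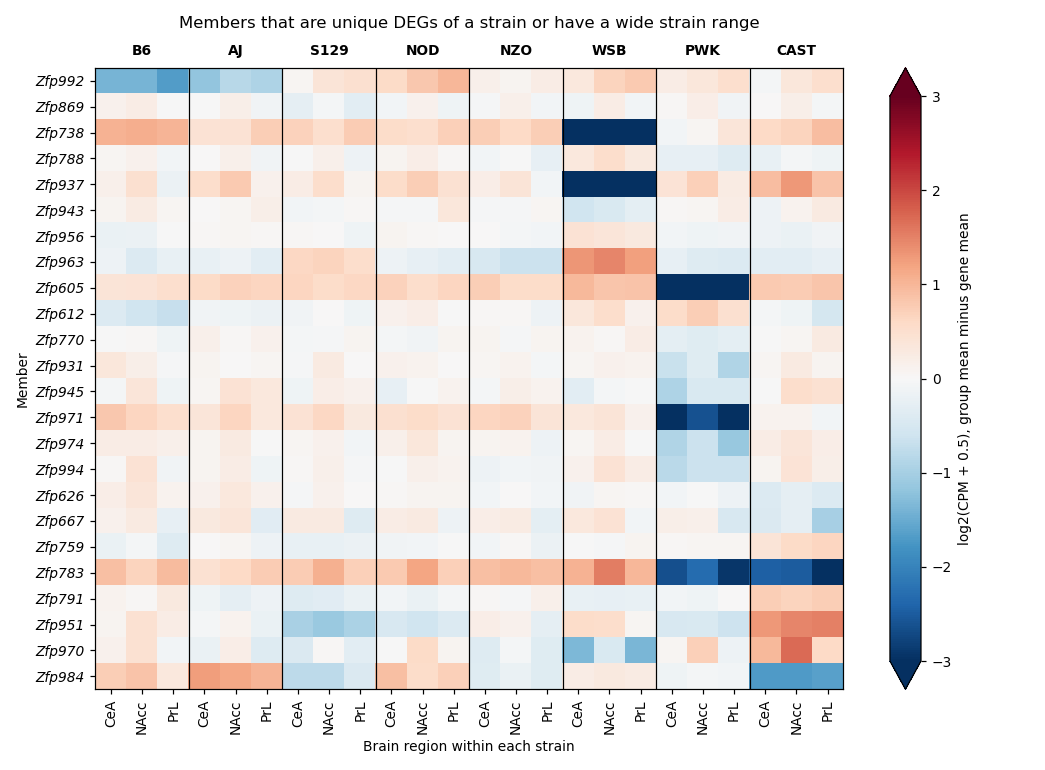
Mean log2(CPM + 0.5) of 24 members in each of the 24 groups of strain and region, minus the member's mean over the groups, with colours limited to 3 log2 units in either direction. The low strain is the same in all 3 regions for Zfp605 and Zfp971 (PWK), Zfp937 and Zfp738 (WSB) and Zfp984 (CAST).

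Members with the KRAB A-box pattern were lower and spread more between strains. The 75 with the pattern had a median of 10.5 CPM and a median of 12 fingers, and the 58 without it 24.4 CPM and 7.5 fingers. Their median ranges of strain means were 0.63, 0.63 and 0.63 log2 units in the CeA, NAcc and PrL, against 0.39, 0.36 and 0.33. Unique differences in all 3 regions were seen for 14 of the 75 and 8 of the 58, and 8 against 1 had a range above 2 log2 units in every region. Of all genes, 4.15% were uniquely up-expressed and 5.01% uniquely down-expressed in all 3 regions. The share of all genes with such a range in every region was not computed. The member numbers are counts with no test, and the part that the lower level of the first group plays was not tested.

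Chromosomes 7, 17 and 8 held the most members, with 33, 20 and 16. Chromosome 4 carries 20 of the 178 genes of this name range in the count table, and only 5 of these are in the log2 table. The 10 whose highest strain mean was at least 0.5 CPM are described here by their values. That limit was set after the values were seen, and a gene could pass it through a single strain, so no count of silent genes is drawn from them.

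Opposite strain patterns occurred side by side on chromosome 4. Zfp990 was at 0.0105 CPM in B6 and 0.00552 CPM in AJ, and at 0.781 to 1.93 CPM in the other strains, the same strains being low as for Zfp992. Zfp982 was at 0.922 CPM in B6 and 0.885 in AJ, and at most 0.0649 CPM elsewhere. Zfp991 was likewise higher in B6 and AJ, at 0.804 and 1.07 CPM, against 0.113 to 0.359 CPM. Zfp979 was at 0.0 CPM in NZO and CAST and reached 1.55 CPM in NOD. Levels of this order rest on few counts per library, so no test was made.

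**Figure D3:**
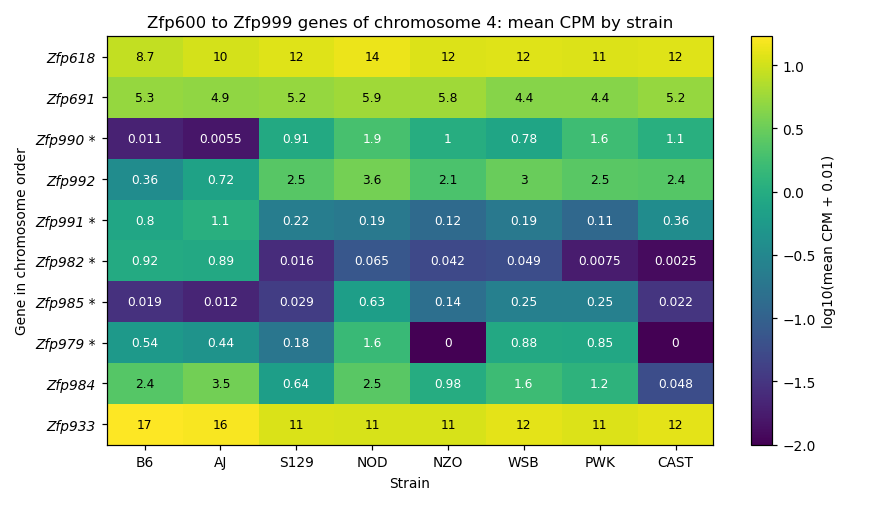
Mean CPM by strain of the 10 chromosome 4 genes whose highest strain mean was at least 0.5 CPM, with an asterisk on those outside the log2 table. Zfp990 and Zfp992 are low in B6 and AJ, where Zfp982 and Zfp991 are highest, and Zfp984 is lowest in CAST.

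On chromosome 2, Zfp937, Zfp970, Zfp971 and Zfp931 have nearly the same KRAB coding stretch. This likeness is not confined to that chromosome, since Zfp933 on chromosome 4 and Zfp938 on chromosome 10 have nearly the stretch of Zfp937. Zfp933 was at 12.5 CPM in WSB and 11.3 CPM in PWK, and at 10.7 to 16.9 CPM elsewhere. Zfp937 was silent in WSB and Zfp970 lowest there, while both were highest in CAST. Zfp971 and Zfp931 were both lowest in PWK. Zfp770, Zfp661 and Zfp831, members elsewhere on that chromosome, varied less, with strain means of 26.4 to 35.8, 7.75 to 11.1 and 48.6 to 59.5 CPM. Zfp770 and Zfp661 were also lowest in PWK.

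For the study's own question, B6 and PWK, the strains with high ethanol preference, were each compared with the mean of the 6 other strains (Low_Average). Both comparisons share these 6 strains, so their results are set side by side and not related to each other. In the CeA 31 members were higher in B6 (22.8%, against 22.3% of all genes) and 25 lower (18.4% against 18.7%). In the NAcc the numbers were 21 (15.4% against 17.2%) and 21 (15.4% against 14.9%), and in the PrL 27 (19.9% against 18.0%) and 25 (18.4% against 19.3%). The B6 shares thus lay near those of all genes in both directions.

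For PWK, 27 members were higher (19.9% against 20.1% of all genes) and 36 lower (26.5% against 19.1%) in the CeA. In the NAcc they were 24 (17.6% against 20.0%) and 32 (23.5% against 18.8%). In the PrL they were 21 (15.4% against 23.9%) and 36 (26.5% against 23.2%). The lower members exceeded the higher ones in each region, by counts alone. Over all members the median difference was close to 0, at -0.0033, 0.0081 and -0.037 log2 units. Without the 12 libraries PWK differed for 53, 39 and 55 members in the CeA, NAcc and PrL in either direction, and B6 for 49, 41 and 43.

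The largest differences were those of genes silent or low in some strains. B6 was lowest against Low_Average for Zfp992 in every region, by -2.20 ± 0.31 (SE) log2 units in the CeA, -2.55 ± 0.30 in NAcc and -3.42 ± 0.28 in PrL. The adjusted p values were 2.7e-07, 5.7e-09 and 1.5e-13 (limma), with AJ, itself low, inside Low_Average. B6 was highest for Zfp738 in the CeA and PrL (1.60 ± 0.079 and 1.34 ± 0.083) and for Zfp984 in the NAcc (1.71 ± 0.22). The PWK value was lowest for Zfp605, which is silent there, and highest for Zfp937, by 1.14 ± 0.12, 1.15 ± 0.12 and 1.23 ± 0.14 log2 units. Low_Average contains WSB for Zfp738 and Zfp937 and CAST for Zfp984, the strains in which those genes are near 0, and PWK at 6.04 CPM of Zfp937 lay inside the range of the strains other than WSB and CAST.

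Members with a known role against retroviruses or in repression are given whatever their values. Zfp809, which recognises the primer-binding site of retroviruses that use the proline tRNA, had means of 8.17 CPM in CAST and 9.11 in PWK against 10.5 to 12.6 CPM elsewhere (F-test adjusted p = 1.9e-06, 3.0e-05 and 4.7e-08 in the CeA, NAcc and PrL, limma). Zfp932, another repressor of endogenous retroviruses, ran from 13.7 CPM in PWK to 22.7 CPM in B6. Zfp961, which reads the lysine tRNA primer-binding site, ran from 11.2 CPM in AJ to 14.2 CPM in B6. Zfp644, a partner of the methyltransferase G9a, ran from 64.4 to 72.7 CPM, Zfp638 from 121.0 to 136.0 CPM, and Zfp609, which acts with cohesin loading factors in cortical neurons, from 71.3 to 82.6 CPM. Zfp708 and Zfp600 were outside the log2 table, and Zfp600 was at most 0.0282 CPM in any strain.

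The partners of the KRAB box had smaller strain ranges than the zinc fingers, as a description with no test. Of 35 listed genes of this machinery (Trim28, histone and DNA methyltransferases, heterochromatin proteins and the like), 33 were measured. The F-test called 29 in the CeA (87.9%, against 80.7% of all genes), 20 in NAcc (60.6% against 75.9%) and 24 in PrL (72.7% against 83.8%). The median range of strain means was 0.28, 0.27 and 0.23 log2 units. Most of these genes were also more abundant than the median zinc finger member, at 12.6 CPM, and the part of level in the ranges was not tested. The rare Uhrf1, at 0.974, 1.65 and 0.947 CPM in the CeA, NAcc and PrL, had ranges of 1.2, 1.02 and 1.29 log2 units. Trim28 itself had 159.0 ± 11.5 CPM in the CeA (SD, n = 48), 162.0 ± 10.9 in NAcc (n = 47) and 153.0 ± 9.47 in PrL (n = 48), with strain ranges of 0.26, 0.12 and 0.14 log2 units. One machinery gene, Resf1, was uniquely up-expressed, in CAST.

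Between regions, members tended to be highest in the NAcc. A model with all libraries compared regions across strains. Against the CeA, 66 members were higher in the NAcc (48.5%, against 35.4% of all genes) and 19 lower (14.0% against 32.6%). Against the PrL, 71 were higher in the NAcc (52.2% against 43.9%) and 27 lower (19.9% against 38.1%). Between the CeA and PrL, 51 were higher in the CeA (37.5% against 38.8%) and 33 in the PrL (24.3% against 34.6%). The NAcc was above both other regions for 52 members (38.2%), against 28.9% of all genes and 37.3% of Zfp1 to Zfp599.

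These differences were small. The median member differed by -0.08 log2 units between CeA and NAcc and by 0.08 between NAcc and PrL, and 0, 1 and 4 members passed 1 log2 unit in the CeA-NAcc, CeA-PrL and NAcc-PrL contrasts. Marker sums of some cell types moved with the same order of regions, and others did not. The summed level of 4 oligodendrocyte markers had medians of 349 CPM in the CeA, 791 in NAcc and 216 in PrL. Medians were 291, 335 and 270 CPM for 5 microglia markers and 1170, 1210 and 1090 CPM for 5 astrocyte markers. Striatal markers had that order as well. The order differed for 3 endothelial markers (109, 126 and 131 CPM), 2 choroid plexus markers (9.75, 8.1 and 3.25) and 6 central amygdala markers (239, 130 and 31.2). Cortical glutamatergic markers were highest in the PrL. The part of cell composition in the region differences was not tested. The counts of called members were 84, 82 and 99 without the 12 libraries, against 85, 84 and 98.

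The widest region difference belonged to Zfp618, whose human counterpart is a reported partner of the hydroxymethylcytosine reader UHRF2. The lowest, median and highest library had 10.7, 16.6 and 25.5 CPM in the CeA, 4.92, 12.9 and 20.9 CPM in the NAcc and 2.46, 4.32 and 11.0 CPM in the PrL. The PrL libraries overlapped the CeA libraries only at their upper end. CeA exceeded PrL by 1.88 ± 0.078 (SE) log2 units (adjusted p = 2.1e-48, limma) and NAcc by 0.39 ± 0.073 (1.1e-06). The CeA-NAcc difference was largest in B6, at 1.00 against 0.12 to 0.58 in the other strains, and the strain by region interaction had an adjusted p of 0.0036 (limma).

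Zfp703, a transcriptional corepressor known from luminal breast cancer, was highest in the PrL. Its lowest, median and highest library had 31.3, 42.2 and 61.9 CPM there, 14.9, 21.5 and 32.9 CPM in the CeA and 13.1, 15.9 and 29.6 CPM in the NAcc. No NAcc library reached the PrL libraries, and the highest CeA library just did. The difference between CeA and PrL was -0.99 ± 0.043 log2 units (adjusted p = 5.5e-46, limma), with every strain between -0.74 and -1.19.

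Zfp853 was lowest in the NAcc, with 1.34, 3.85 and 7.78 CPM against 2.92, 8.79 and 12.2 CPM in the CeA and 5.96, 10.1 and 16.1 CPM in the PrL. The regions overlapped, and the difference was 0.90 ± 0.090 log2 units for CeA minus NAcc and -1.28 ± 0.089 for NAcc minus PrL. Zfp970 was highest in the NAcc, with a median of 12.6 CPM against 9.39 and 8.82 CPM in the CeA and PrL, and every strain had its highest mean there. Zfp870 was lowest in the CeA, at a mean of 8.53 ± 1.91 CPM (SD, n = 48) against 10.4 ± 1.86 (n = 47) and 10.5 ± 2.14 (n = 48), a difference of -0.30 ± 0.035 and -0.32 ± 0.035 log2 units.

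**Figure D4:**
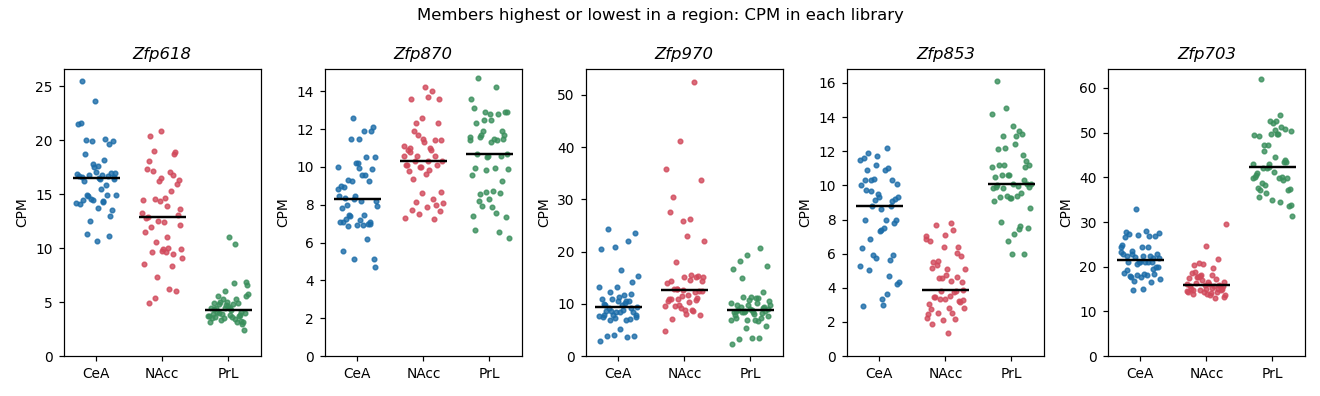
CPM per library of 5 members by region, with a black line at the median. Zfp618 falls from a median of 16.6 CPM in the CeA to 4.32 CPM in the PrL, Zfp703 is highest in the PrL at 42.2 CPM, and Zfp853 is lowest in the NAcc at 3.85 CPM.

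Whether strain differences depended on the region was asked by an interaction of strain and region with 14 degrees of freedom. A total of 27 members were called (19.9%), against 34.2% of all genes, and 17 without the 12 libraries. The smallest adjusted p belonged to Zfp941 (1.7e-06, limma), a KRAB zinc finger of chromosome 7. In the CeA and NAcc its strain means lay between 41.0 and 53.1 CPM, and the strain ranges were 0.39 and 0.28 log2 units. In the PrL, WSB had 16.7, 18.6 and 19.3 CPM as the lowest, median and highest of 6 libraries and CAST 14.3, 15.7 and 23.3 CPM, while the other strains had means from 26.3 ± 1.66 CPM in NZO to 33.8 ± 3.35 in S129 (SD, n = 6). The WSB libraries lay below those of every other strain except CAST. CeA exceeded PrL by 1.52 log2 units in CAST and 1.15 in WSB, and by 0.53 to 0.94 in the others.

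Zfp658 followed (adjusted p = 1.2e-05, limma). B6 was lower in the NAcc, at 6.87 ± 0.353 CPM (SD, n = 5), than in the PrL, at 9.53 ± 1.2 (n = 6), while WSB and PWK were higher in the NAcc, at 12.3 ± 2.03 and 12.8 ± 1.76 CPM, than in the PrL, at 9.04 ± 0.807 and 9.29 ± 1.35. The NAcc minus PrL difference was -0.44 log2 units in B6 and 0.41 and 0.44 in WSB and PWK. Zfp738 was the third (0.00078 by limma, 0.080 by edgeR). CAST had 24.0 ± 3.55 CPM in the CeA and 29.9 ± 2.69 in the PrL (SD, n = 6 each), while B6 had 32.8 ± 4.61 and 32.2 ± 6.19 CPM. CAST was not alone in this. In log2 units from the gene's mean, PWK went from -0.08 to 0.36 and AJ from 0.43 to 0.74. NZO, like B6, did not rise, at 0.74 and 0.73.

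**Figure D5:**
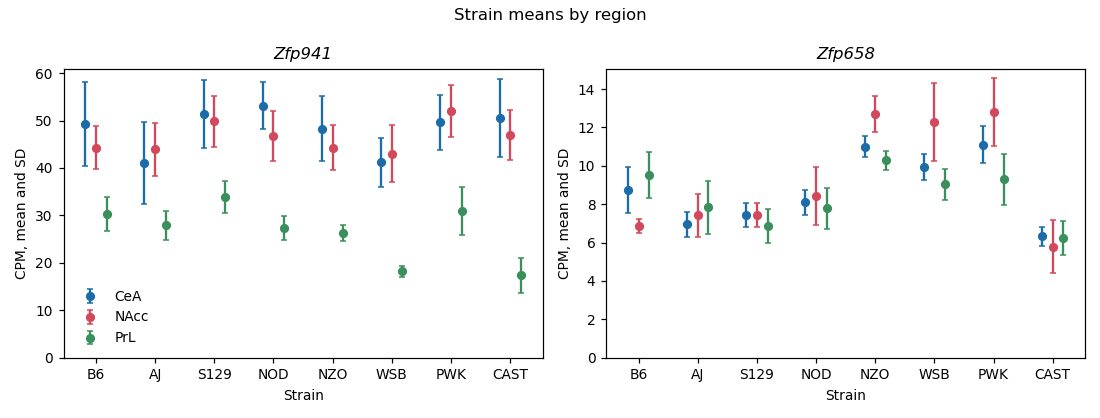
Mean CPM by strain of Zfp941 and Zfp658 in each region, with error bars of 1 SD over 6 mice (5 for B6 in the NAcc). The PrL means of Zfp941 are 18.2 in WSB and 17.4 in CAST and at least 26.3 elsewhere, and Zfp658 in B6 is lowest in the NAcc at 6.87.

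The sexes differed for a single member, Zfp976 (0.735% of members, against 0.46% of all genes), which is named here because it was the only one called. Females exceeded males by 0.23 ± 0.047 (SE) log2 units over all libraries (adjusted p = 0.0029, limma). The lowest, median and highest female had 2.01, 3.77 and 6.4 CPM in the CeA, and the males 1.68, 2.88 and 5.15 CPM, with 24 mice each. The medians were 6.01 and 4.64 CPM in the NAcc and 4.04 and 3.44 CPM in the PrL. The sexes overlapped widely, and the female mean was higher in 6 of 8 strains in the CeA and 7 of 8 in the NAcc and in the PrL. The count was 6 with both sequencing runs summed and 2 by edgeR or without the 12 libraries, and 16 members had an unadjusted p under 0.05.

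The promoters of 117 members were in the RefSeq table for GRCm38.p6. The 250 bases before the start held a median of 10 CG dinucleotides in members and 6 in all 27025 genes with a promoter, and the count ran from 2 to 48 in members. This is a description of sequence letters and was not related to expression.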

How the data were processed

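Total RNA of 3 hand-dissected brain regions from 48 mice was made into stranded polyadenylated libraries and sequenced in paired ends. Per the labels and the study's methods, the authors checked reads with FastQC, trimmed them with Trimmomatic and aligned them with STAR 2.7.3a to GRCm39 with Ensembl annotation, and deposited the STAR read counts per gene. The strand setting of the counting is not given in the sources used here, so reads of overlapping genes may be misassigned. The authors also deposited log2 CPM values (counts scaled to library size) for 14785 genes passing their filter, made with edgeR 3.38.1 and limma 3.52.2. The 240 count columns include repeat runs of trays 2 and 3, of which tray 2's first and tray 3's second run were used, since TMM-scaled log2 values from them matched the deposited ones to within 5e-06.

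Counts of those genes were scaled by TMM over the libraries kept by the authors and fitted with limma 3.58.1 and edgeR 4.0.16 in R 4.3.3, with strain, sex and tray as terms in each region and a global Benjamini-Hochberg adjustment over the 28 strain contrasts of a region. A call is an adjusted p under 0.05. Regions, sex and the interaction were tested in models of all libraries. A block for the mouse was checked because 1 mouse gave all 3 regions: residuals of the same mouse correlated with a median r of 0.0552 between CeA and NAcc, 0.0257 between CeA and PrL and 0.00961 between NAcc and PrL, against -0.000264, 0.00239 and 0.000204 for other mice. Alternatives were RLE size factors, no filter, no tray term, 144 libraries, summed runs, edgeR and DESeq2 1.42.0 in place of limma, adjustment within each contrast, a replicate block, leaving out B6 NAcc mice, and leaving out 12 libraries with aberrant marker levels. The procedures were tested on simulated data.

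Named genes were those silent in a strain; the unique difference with the largest smallest fold change per strain and direction; the highest and lowest in each region; the 3 smallest interaction p values; the 3 highest, 3 lowest and 3 steadiest; the largest differences of B6 and PWK from Low_Average; and 8 genes of known role. The members and lists were chosen with earlier results of these data known. Coordinates are not given because the reference used here is GRCm38, and gene order, proteins and promoters come from GENCODE M21 and RefSeq GRCm38.p6. Within a strain and region, replicates are separate mice. Strain summaries with an n of 17 or 18 pool libraries of 3 regions from 6 mice, so their SD includes differences between regions. The floor of 3 counts per library is the limit used for silence and not an estimate of error. Matplotlib 3.10.9 drew the figures.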

Additional observations from a re-analysis of the deposited data

Results flagged for a closer look

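In 36 groups of 5 or 6 libraries tested for a library far from the rest, 4 had one, where chance gives about 5% of groups. The summed level of the members was lowest by a wide gap in the CeA library of AJ mouse 21, at 2930 CPM, and in that of PWK mouse 24, at 2950 CPM. Zfp869 was highest at 28.5 CPM in the PrL of S129 mouse 46, which narrows the distance of S129 from the other strains there. Zfp963 was lowest at 5.28 CPM in the PrL of WSB mouse 27, still above every library of the other strains.

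Strain differences that changed between regions were strongest for Zfp941 (interaction adjusted p = 1.7e-06, limma), Zfp658 (1.2e-05) and Zfp738 (0.00078). For Zfp941 the WSB and CAST levels were both far below the other strains in the PrL alone. WSB was also lowest in the NAcc by a small margin, at 5.43 log2 CPM against 5.46 to 5.71. In the CeA it was at 5.37, beside AJ at 5.35.

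Of the 42 genes of the name range outside the log2 table, 8 had a strain mean of at least 1 CPM. They were Zfp990 at 1.93 CPM and Zfp979 at 1.55 CPM in NOD, Zfp820 at 1.54 CPM and Zfp947 at 1.23 CPM in CAST, Zfp781 at 1.09 CPM, Zfp991 at 1.07 CPM and Zfp808 at 1.07 CPM in AJ, and Zfp953 at 1.07 CPM in B6. Of the 42 genes, 22 stayed under 0.1 CPM in every strain.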

How the results depend on the processing

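Of the counts of called members, 152 recomputed values stayed within 1.5 times the value reported and 7 did not, and no result reversed. Without the tray term, down-expressed unique members fell from 15 to 8. Without the 12 libraries of aberrant marker levels, an alternative chosen after seeing the data, the interaction called 17 members against 27, and sex 2 against 1. Sex called 6 members with summed runs and 2 by edgeR. Silent members numbered 0 when every library had to hold 0 counts, and 1 (Zfp605) with summed runs. The cause of these shifts was not tested, except that summing runs raises the counts and a limit of 0 is stricter by construction. Of the values of single genes, 287 kept their side of the threshold and 7 lost it, namely Zfp612 in 3 settings, Zfp869 in 3 and the Zfp738 interaction by edgeR.

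With the mouse as a replicate block, the region contrasts called 86, 84 and 98 members against 85, 84 and 98, the interaction 32 against 27 and sex 1 against 1, and all calls of the unblocked fit were among those of the blocked fit. Leaving out single B6 NAcc mice moved no count by over 1.5 times, and without mouse 33 or 41 Zfp626 lost its CAST call. RLE size factors moved the median difference of all genes by at most 0.00796 log2 units. Depth limits the rarest members most: below 5 CPM, where 18 members lie, ranges of strain means rest on few reads.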
